A study of Populus tremula x Populus alba with 64 samples.

Results

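The early root response to a foliar auxin spray was measured in 6 of the 64 RNA-seq libraries of the series, 3 from the roots of plants sprayed with an auxin enhancer cocktail (AE) and 3 from the roots of their own controls (control-AE), both taken at 24 h. The libraries were chosen by their titles, and all rows with enough counts were compared, AE minus control-AE. The plants were rooted leafy cuttings of the poplar clone INRA 717-1B4, a hybrid of Populus tremula and Populus alba, so every library comes from 1 genotype. The AE spray held 3 µM α-naphthalene acetic acid (NAA, a synthetic auxin) and 4.5 µM indole-3-butyric acid (IBA, a natural auxin precursor) in 1 N KOH, and the control-AE plants received 1 N KOH alone. All cuttings, controls included, had been given a rooting powder at the stem base before the experiment, and the spray was applied to leaves, so the roots were not treated directly. The series also holds the same pair of groups at 11 days and in stems, and an auxin transport inhibitor (AI, 100 µM naphthylphthalamic acid) with its own KOH control (control-AI). Of these, 6 AE and 3 control-AE libraries of roots at 11 days, 3 AE and 2 control-AE libraries of stems at 24 h and 2 AI and 3 control-AI libraries of roots at 24 h had over 1000000 counts and served for comparison. For the control-AE roots at 11 days the depth labels and the counts disagree. Control-AE 2, labelled low counts, held 7784687 counts and was kept. Control-AE 3, labelled acceptable, held 120199 counts and was left out. The study's methods put all collections for molecular work in the same hour of the morning.

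Auxin moves from young leaves to the root tip through the phloem and through polar transport by carriers of the PIN and AUX/LAX families. In a responding cell the hormone joins the receptor TIR1 to Aux/IAA repressors, which are then degraded, and auxin response factors (ARFs) are freed to act on their target genes. Genes of the Aux/IAA, SAUR and GH3 families are known as fast targets of this pathway in many plants. In roots, some LBD transcription factors act downstream of auxin in the formation of lateral roots.

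Root RNA at 24 h differed little between AE and control-AE. Of 22107 rows tested, edgeR's quasi-likelihood test called 0 at an adjusted p below 0.05 (0% of rows), and the smallest adjusted p was 0.9998. At an unadjusted p below 0.05 there were 443 rows higher in AE-roots (2.00% of rows) and 365 lower (1.65%), 3.65% in all. DESeq2, the study's tool, called 10 of 20712 rows (0.0483%), 9 higher (0.0435%) and 1 lower (0.00483%), and 759 rows had an unadjusted p below 0.05 by it. The count of calls thus differs between the tools. The 3 libraries of AE-roots and the 3 of control-AE roots did not overlap in any of the 10 rows, beside 7.89% of all tested rows. The same libraries chose the 10 rows, so the lack of overlap lends the calls no further weight. These are bulk samples, in which fewer cells of a type and less RNA per cell cannot be told apart.

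The size of difference that these libraries could show was moderate. The median of the log2 fold change over all tested rows was 0.00 and the median of its absolute value was 0.14, whereas the median standard error (SE) was 0.23. The 95% interval reached 0.52 to either side of the estimate in the median row. For 16150 rows, 73.1%, the interval lay between -1 and 1, short of a doubling or a halving. Each interval holds for its row alone, so some of these rows may still differ by 2-fold. At least a 2-fold difference was estimated for 193 rows in the direction of AE and for 118 in the direction of control-AE, and in 158 of these 311 rows the groups did not overlap. Over all tested rows the groups did not overlap in 859 rows with AE above (3.89%) and in 885 rows with AE below (4.00%), 7.89% in all. The spread between libraries of a group, a median SD of 0.25 on the log2 CPM scale, was larger than the median difference between group means of 0.13.

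**Figure D1:**
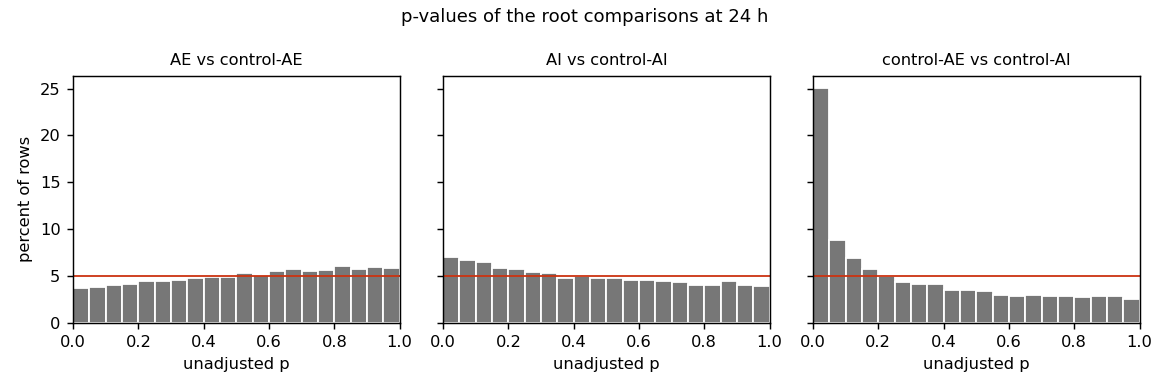
Share of rows (y axis, percent) in each interval of 0.05 of the unadjusted edgeR p-value (x axis) for the 3 root comparisons at 24 h; the red line marks an even spread. For AE against control-AE the lowest interval holds 3.65% of rows, for AI against control-AI 7.00%, and for the 2 KOH-sprayed controls 25.1%.

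The 6 libraries held between 10081699 and 11259763 counts, with TMM scaling factors from 0.946 to 1.04, and the totals of the groups overlapped. Counts scaled to library size (CPM) are given on the TMM scale, in the order control-AE 1, 2 and 3 and then the unnumbered AE library, AE 1 and AE 2. The labels do not say whether libraries came from separate plants, and the p-values measure only the spread between these samples. In a principal component analysis of the 11 root libraries at 24 h with over 1000000 counts, the first component (32.2% of the variance) placed the 3 AE libraries at -9.68, 36.7 and 83.4 and the control-AE libraries at 13.7, 19.8 and 42.6, so the AE libraries spread around their controls. Between libraries of a group the chi-square per degree of freedom was 18.8 to 35.4 in AE and 8.63 to 18.8 in control-AE, so each pair differed by more than sampling noise. The summed level of 13 rows for green shoot tissue was 51.8, 99.2 and 70.95 CPM in the control-AE roots and 144, 116 and 27.8 CPM in the AE-roots, and its part in the results was not tested. The control-AI roots lay at -48.1 to -38.8. Both control groups had received KOH alone, and edgeR called 1458 of 22241 rows between them (6.56%, 564 higher and 894 lower in control-AE). This comparison shares its control-AE libraries with that of AE against control-AE. That count fell to 62 without control-AE 2, to 397 without control-AE 3, to 29 without control-AI 1 and to 495 without control-AI 2.

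**Figure D2:**
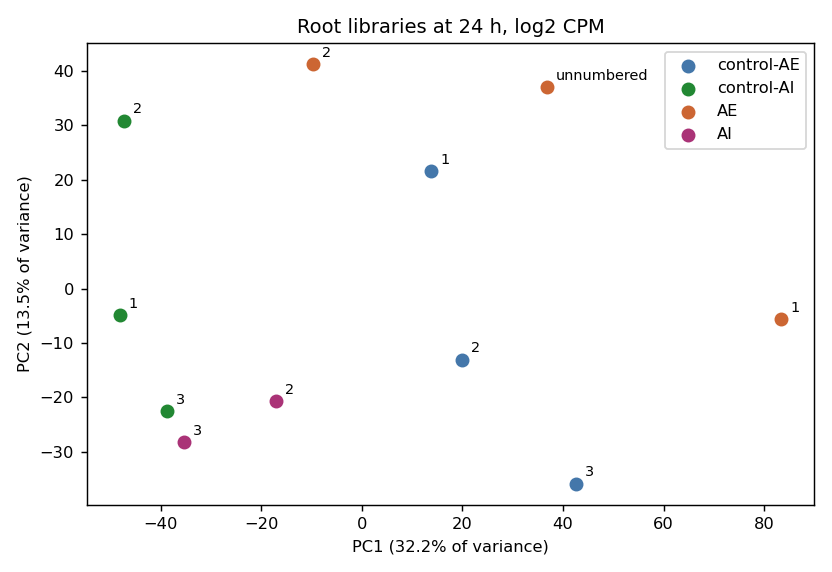
First and second principal component of log2 CPM in the 11 root libraries at 24 h, 1 point per library with its number in the labels. The AE libraries (orange) run from -9.68 to 83.4 on the first component and enclose the control-AE libraries (blue, 13.7 to 42.6), and the control-AI libraries (green) lie at -48.1 to -38.8.

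The 10 rows with the smallest p in each direction carry no product name in the sources used here. The row with the smallest p of all was gene 18100237 (sequence NC_037290.1, 10848331 to 10851695, minus strand of the RefSeq assembly named in the files, build not given), with 10.1, 9.17 and 11.3 CPM in the control-AE roots and 21.9, 28.2 and 24.9 CPM in the AE-roots. The AE libraries were all above the control-AE libraries, with a log2 fold change of 1.29 ± 0.16 (SE). It was also the row with the smallest adjusted p by DESeq2, 0.000105. Gene 7460484 had 8.22, 7.41 and 6.51 CPM in the control-AE roots and 19.2, 14.4 and 18.8 CPM in the AE-roots, again without overlap (log2 fold change 1.24 ± 0.18). In the other direction, gene 7467483 had 173, 214 and 202 CPM in the control-AE roots and 105, 128 and 105 CPM in the AE-roots (log2 fold change -0.80 ± 0.14), and it was the 1 lower row that DESeq2 called. Gene 7468923, at 2.39, 2.83 and 3.26 CPM in the control-AE roots and 0.789, 0.781 and 0.296 CPM in the AE-roots, had the lowest p of the lower rows in edgeR (log2 fold change -2.15 ± 0.38).

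The same 20 rows were read in libraries that did not choose them. Of the 10 rows higher in AE-roots at 24 h, 9 also had a positive log2 fold change in roots at 11 days (median 0.36), 8 had one in stems at 24 h (median 0.35) and 3 had one under AI in roots (median -0.06). Of the 10 lower rows, 8 were also negative at 11 days (median -0.36), 7 in stems (median -0.14) and 4 under AI (median 0.06). These are directions of estimates, given without the share of all tested rows that had the same sign there, so they do not measure agreement. No row of the 20 was called by edgeR in a test of the difference between treatments, times or tissues.

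Product names were at hand for 1922 of the 22107 tested rows. They come from a list that had been ordered by its p-value in roots at 11 days, so the gene groups below are parts of their families, weighted towards genes that moved at the later time. Among the named rows, 55 with a positive and 63 with a negative fold change had an unadjusted p below 0.05, 2.86% and 3.28% of them beside 2.00% and 1.65% of all rows, and edgeR called 0 of them, with an adjusted p of 0.9998 or above in every row named below. No member of any of the 25 gene groups was called by DESeq2 either.

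No early auxin target was called, and their intervals were often wide. The 95% interval lay between -1 and 1 for 2 of 5 Aux/IAA, 1 of 3 GH3 and 2 of 3 SAUR genes. The intervals of the other genes leave room for a 2-fold difference. All 5 Aux/IAA genes were tested, 0 were called, 1 lay above and 4 below their controls, and their median log2 fold change was -0.18, beside 0.00 over all rows. IAA16 (gene 7474609), the most abundant of them, had 315, 323 and 309 CPM in the control-AE roots and 268, 313 and 261 CPM in the AE-roots. Its groups overlapped, and the 95% interval of its log2 fold change, -0.46 to 0.13, left out a 1.5-fold change in either direction. AUX28 (7454323) had 48.3, 49.8 and 32.7 CPM in the control-AE roots and 49.6, 42.1 and 56.9 CPM in the AE-roots, with a log2 fold change of 0.18 ± 0.19. IAA2 (7470733) had 4.42, 8.97 and 6.22 CPM in the control-AE roots and 3.33, 4.001 and 7.01 CPM in the AE-roots, IAA33 (7488970) had 19.4, 14.5 and 11.4 CPM in the control-AE roots and 22.4, 7.51 and 9.97 CPM in the AE-roots and the auxin-induced protein 22D (7476883) had 1.77, 3.22 and 3.26 CPM in the control-AE roots and 1.67, 2.05 and 3.16 CPM in the AE-roots. In none of the 5 genes were the groups apart.

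GH3 enzymes join auxin to amino acids and so remove it from the active pool. The 3 measured GH3 genes had a median log2 fold change of 0.11. One GH3.1 gene (18101160) had 17.2, 14.05 and 24.4 CPM in the control-AE roots and 21.5, 24.1 and 40.6 CPM in the AE-roots, a log2 fold change of 0.63 ± 0.29 with an interval of -0.05 to 1.31. AE 2 was the highest library and the other AE libraries lay within the range of the controls. The other GH3.1 gene (7469610) had 53.8, 33.1 and 18.9 CPM in the control-AE roots and 54.7, 20.2 and 39.1 CPM in the AE-roots, where control-AE 3 and AE 1 were the low libraries of their groups, and GH3.6 (7497419) had 21.8, 12.6 and 11.5 CPM in the control-AE roots and 15.5, 10.4 and 13.2 CPM in the AE-roots.

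The SAUR genes, which promote cell expansion, were all slightly below their controls, with a median log2 fold change of -0.24 over 3 genes and 0 called. SAUR71 (7492101) had 63.04, 72.3 and 91.9 CPM in the control-AE roots and 64.3, 78.9 and 46.98 CPM in the AE-roots. SAUR36 (7461707) had 15.5, 16.7 and 16.9 CPM in the control-AE roots and 19.6, 13.96 and 13.03 CPM in the AE-roots, and SAUR50 (18109456) had 1.95, 2.44 and 2.11 CPM in the control-AE roots and 1.75, 1.17 and 2.57 CPM in the AE-roots. The groups overlapped in all 3.

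In the machinery of perception and transport 2 rows lay above and 4 below their controls. In 1 of them, a less abundant row of ARF19, the groups were apart with AE below, as in 4.00% of all tested rows. ARF6 (7464667) had 67.3, 74.03 and 82.3 CPM in the control-AE roots and 71.2, 82.9 and 61.4 CPM in the AE-roots, with an interval of -0.40 to 0.29. The main row of ARF19 (18100300) had 4.07, 4.97 and 4.88 CPM in the control-AE roots and 4.91, 6.34 and 3.85 CPM in the AE-roots, and a second, less abundant row of the same gene had 1.15, 1.95 and 1.63 CPM in the control-AE roots and 1.14, 0.976 and 0.493 CPM in the AE-roots (log2 fold change -0.83 ± 0.40). Reads shared by rows of 1 gene could be split between them or left out by the counting, which was not tested, so values of such rows are uncertain. Genes with 1 row made up 42.3% of the rows in the files and held 95.1% to 95.5% of the counts of the 6 libraries. Rows of genes with more than 1 row thus held only a small part of the counts. The receptor TIR1 (7494337) was at 0.884, 1.07 and 1.34 CPM in the control-AE roots and 1.05, 1.46 and 0.987 CPM in the AE-roots, near the lower limit of what was tested. This was 1 of 3 rows of the gene, and the others had no counts in the 6 libraries. The low value therefore need not be the level of the gene. Of the efflux carriers, PIN3 (7488396) had 20.4, 19.995 and 17.2 CPM in the control-AE roots and 18.1, 12.9 and 21.5 CPM in the AE-roots and PIN6 (7492445) had 15.2, 16.97 and 17.1 CPM in the control-AE roots and 16.6, 12.1 and 15.5 CPM in the AE-roots, both lowest in AE 1.

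The only auxin gene with an unadjusted p below 0.05 was the dioxygenase DAO (7489058), which oxidizes auxin to an inactive form. DAO (sequence NC_037295.1, 16620604 to 16622288, minus strand) had 5.22, 4.29 and 4.69 CPM in the control-AE roots and 7.45, 7.61 and 6.71 CPM in the AE-roots, so all 3 AE libraries were above the 3 control-AE libraries. Its log2 fold change was 0.61 ± 0.18 with an interval of 0.19 to 1.04, and it did not pass after adjustment (edgeR, adjusted p = 0.9998). The DAO fold change was 0.98 in roots at 11 days, 1.11 in stems at 24 h and 0.17 under AI, each given as an estimate only. DAO was not called at 11 days by edgeR or DESeq2. Its name comes from the list ordered by p at 11 days, so a large value at that time is more likely than for other rows. On the side of auxin synthesis, YUCCA10 (18111290), a monooxygenase of the last step, had 61.98, 63.2 and 65.4 CPM in the control-AE roots and 52.5, 57.7 and 59.8 CPM in the AE-roots. The AE values were all below the control values there, by a small margin (log2 fold change -0.17 ± 0.11). The aminotransferase TAR4 (7468758) had 372, 315 and 182 CPM in the control-AE roots and 376, 268 and 381 CPM in the AE-roots, and ILR1 (7492233), which frees auxin from its amino acid conjugates, had 29.9, 27.99 and 26.5 CPM in the control-AE roots and 35.8, 26.6 and 33.9 CPM in the AE-roots.

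Of the 5 LBD genes with a name, 3 lay above and 2 below their controls, with a median log2 fold change of 0.02 and 0 called. Whether these members take part in the formation of lateral roots was not tested. The most abundant, LBD37 (7476419), had 79.6, 103 and 142 CPM in the control-AE roots and 88.8, 138 and 74.9 CPM in the AE-roots, and one of the LBD41 genes (7477423) had 56.1, 54.4 and 62.3 CPM in the control-AE roots and 55.4, 89.001 and 51.4 CPM in the AE-roots. AE 1 was the highest AE library in both. The other LBD41 gene (18099497), LBD39 (7462849) and an LBD38-like gene (112328170) had log2 fold changes of 0.02 ± 0.24, 0.14 ± 0.33 and -0.39 ± 0.48.

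**Figure D3:**
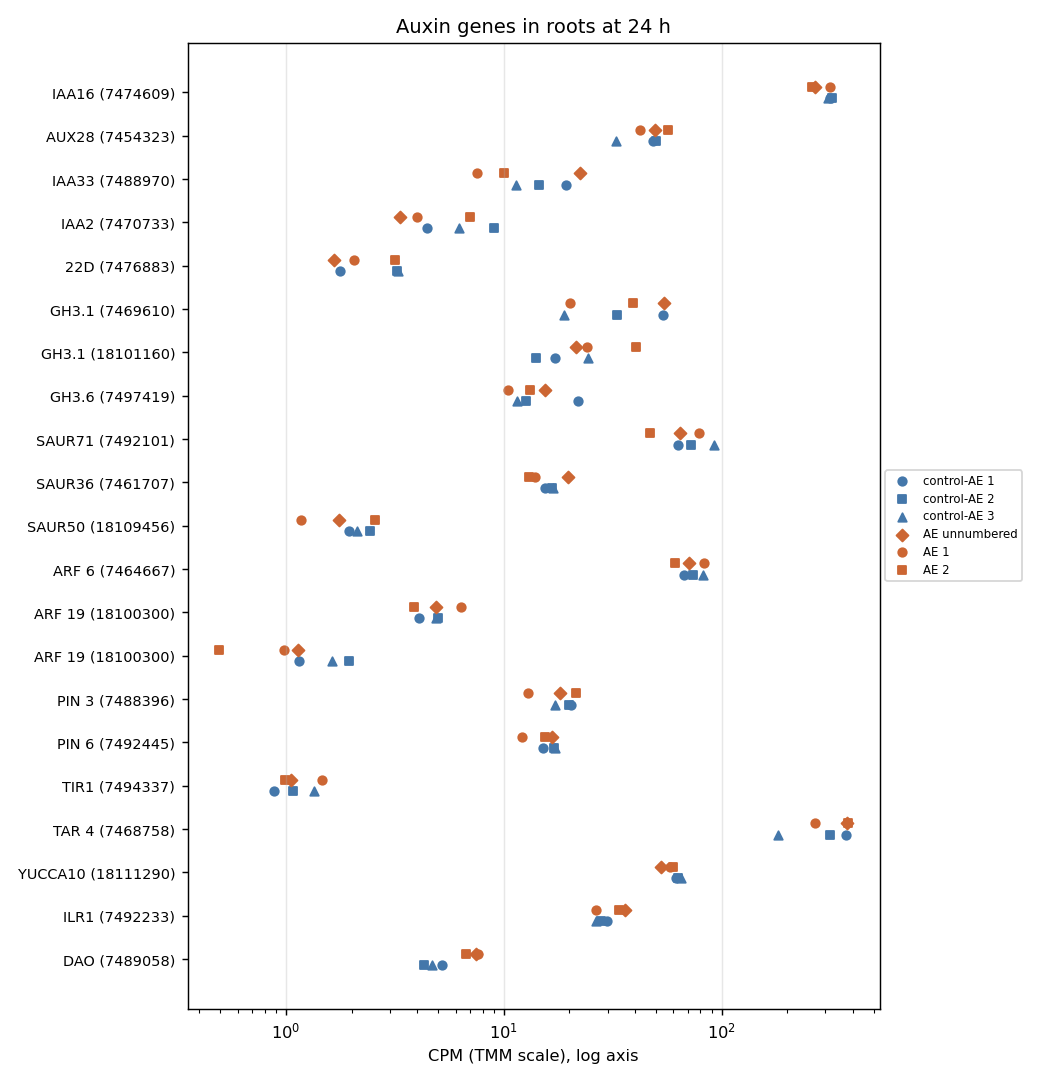
CPM on the TMM scale (x axis, log scale) of the auxin genes in each library, control-AE in blue and AE in orange, 1 symbol per library and 1 line per row of the files. The groups lie apart for DAO (AE above), YUCCA10 (AE below) and the second row of ARF19 (AE below), and overlap in the other rows shown. Over all tested rows the groups did not overlap in 7.89%.

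Cell wall genes lay on both sides of their controls. Polygalacturonases cut pectin and loosen walls, and 2 rows carry this name without a further qualifier, on the same sequence. Gene 7459926 (sequence NC_037291.1, 15381285 to 15383147, plus strand) had 2.65, 2.24 and 4.02 CPM in the control-AE roots and 1.05, 1.66 and 1.58 CPM in the AE-roots, all AE libraries below all control-AE libraries, with a log2 fold change of -1.06 ± 0.33, and was not called. Gene 7469534 (sequence NC_037291.1, 15412867 to 15414577, minus strand) had 6.45, 9.56 and 14.1 CPM in the control-AE roots and 6.57, 4.20 and 10.4 CPM in the AE-roots (log2 fold change -0.51 ± 0.38). In roots at 11 days the fold changes of the same rows were 2.42 and 2.33, and neither row was called there by edgeR or DESeq2. The differences between the times, -3.47 and -2.83, were not called either (edgeR, adjusted p = 0.9999 for both). Over the 12 pectin-modifying rows tested, 10 lay below and 2 above their controls, the median was -0.16, and 1, gene 7459926, had an unadjusted p below 0.05, where 1.65% of all rows were lower at that p. The most abundant, a probable polygalacturonase (7497216) and polygalacturonase At1g48100 (7492392), had log2 fold changes of -0.21 ± 0.16 and -0.09 ± 0.28.

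Expansins, which loosen walls without cutting them, had a median of 0.09 over 3 genes, with expansin-A17 (7478823) at 28.2, 20.3 and 30.6 CPM in the control-AE roots and 26.99, 19.3 and 30.4 CPM in the AE-roots. Among 17 rows for xyloglucan and cellulose enzymes the median was -0.02, and 2 had an unadjusted p below 0.05, both higher, beside 2.00% of all rows. A xyloglucan endotransglucosylase (7465538), an enzyme that rejoins wall polymers, had 2.83, 1.46 and 3.35 CPM in the control-AE roots and 8.94, 6.25 and 2.27 CPM in the AE-roots (log2 fold change 1.19 ± 0.51). Endoglucanase 17 (7478849) had 2.21, 2.83 and 2.97 CPM in the control-AE roots and 3.24, 4.59 and 4.44 CPM in the AE-roots without overlap (log2 fold change 0.61 ± 0.25). Endoglucanase 12 (7460657), another abundant row, had a log2 fold change of 0.35 ± 0.19. Cellulose synthase A subunit 1 (7459022), the most abundant of the group, had 537, 452 and 386 CPM in the control-AE roots and 486, 326 and 568 CPM in the AE-roots and a log2 fold change of 0.00 ± 0.23.

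All 3 rows annotated as mitochondrial AAA-ATPase ASD, members of a large family of ATP-driven proteins, lay above their controls, with a median of 0.42. Gene 7487192 had 50.7, 46.3 and 71.9 CPM in the control-AE roots and 98.9, 68.8 and 134 CPM in the AE-roots, with overlap only between control-AE 3 and AE 1 (log2 fold change 0.84 ± 0.27). Gene 18097389 had 17.2, 15.5 and 18.7 CPM in the control-AE roots and 27.9, 13.3 and 27.5 CPM in the AE-roots and gene 18109209 had 23.96, 22.1 and 18.9 CPM in the control-AE roots and 29.9, 17.8 and 34.1 CPM in the AE-roots, and in both AE 1 was the lowest library of all. The fold changes at 11 days were 0.43, 1.25 and 1.11 for the same order of genes. Gene 18097389 was the 1 row that edgeR called in roots at 11 days (0.00397% of rows, edgeR, adjusted p = 0.042), and the difference of its fold change between 24 h and 11 days, -0.81, was not called (edgeR, adjusted p = 0.9999).

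Starch and sugar genes went in both directions, 8 rows above and 7 below, with a median of 0.02. Beta-amylase 1 (7494763), which degrades starch in plastids, had 20.95, 23.4 and 23.2 CPM in the control-AE roots and 48.5, 17.96 and 28.9 CPM in the AE-roots. The unnumbered AE library was high, AE 1 was the lowest of all, and the log2 fold change of 0.50 ± 0.32 had a 95% interval of -0.24 to 1.24. Inactive beta-amylase 9 (7454257), the most abundant row of the group, had 369.6, 583 and 726 CPM in the control-AE roots and 247, 563 and 205 CPM in the AE-roots, with a log2 fold change of -0.73 ± 0.41 and AE 1 within the range of the controls. A further beta-amylase (18107014) had 6.98, 22.9 and 30.7 CPM in the control-AE roots and 10.7, 19.7 and 3.65 CPM in the AE-roots (log2 fold change -0.83 ± 0.65). The 3 beta-amylase rows thus lay on both sides of their controls, and the groups overlapped in each. Sugar transport protein 14 (7467985), a carrier of hexoses, had a log2 fold change of -0.26 ± 0.24. The sucrose carrier SUC8 (7467435), which loads sucrose across membranes, had 21.7, 42.5 and 41.7 CPM in the control-AE roots and 21.8, 26.1 and 20.2 CPM in the AE-roots (log2 fold change -0.64 ± 0.26). It was the 1 row of the group with an unadjusted p below 0.05, where 1.65% of all rows were lower at that p. SUC8 was also below its controls at 11 days, where DESeq2 called it with a fold change of -0.56 (adjusted p = 0.000468).

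The group with the most members past an unadjusted p of 0.05 was that of conjugation and efflux, which holds glutathione S-transferases, glycosyltransferases and DETOXIFICATION carriers that tag and export foreign compounds. Of its 19 rows, 14 lay above and 5 below their controls, the median log2 fold change was 0.22, and 5 had an unadjusted p below 0.05, all of them higher, beside 2.00% of all rows. A probable glutathione S-transferase (18108801) had 134, 114 and 129.9 CPM in the control-AE roots and 138, 191 and 211 CPM in the AE-roots, and transferase U17 (18102327) had 6.98, 4.58 and 5.36 CPM in the control-AE roots and 9.55, 7.12 and 12.6 CPM in the AE-roots, both without overlap. A further transferase (18109264) had 11.1, 14.1 and 12.5 CPM in the control-AE roots and 12.6, 21.9 and 43.8 CPM in the AE-roots, another (7460012) had 83.99, 91.2 and 110.5 CPM in the control-AE roots and 125, 105 and 169 CPM in the AE-roots, and DETOXIFICATION 16 (18100524) had 43.9, 42.8 and 41.7 CPM in the control-AE roots and 63.4, 43.6 and 57.8 CPM in the AE-roots. Their fold changes were 0.51 ± 0.18, 0.79 ± 0.27, 1.05 ± 0.41, 0.48 ± 0.20 and 0.36 ± 0.16 in that order, and 0 were called. The most abundant rows of the group, glutathione S-transferase F11 (7496893) and a probable glutathione S-transferase (7477018), had log2 fold changes of 0.13 ± 0.44 and 0.41 ± 0.22. Control-AE 1 had the lowest summed level of the group, 1043, 1307 and 1508 CPM in the control-AE roots and 1428, 1661 and 1664 CPM in the AE-roots.

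Of the other hormones, the ethylene group had a median of 0.06 over 12 rows, cytokinin genes -0.00 over 8 and gibberellin genes 0.29 over 5, beside 0.00 over all rows and each with 0 called. The gibberellin median was thus above that of all rows, with 3 rows above and 2 below their controls. In the ethylene group, 1-aminocyclopropane-1-carboxylate oxidase (7484327), an enzyme of ethylene synthesis, had a log2 fold change of 0.89 ± 0.63. The other rows were grouped by the family name ethylene-responsive transcription factor, and whether they respond to ethylene was not tested. The most abundant of them were those of RAP2-4 (7456918 and 7471518), with log2 fold changes of -0.34 ± 0.35 and -0.33 ± 0.24. ERF1B (7487696), an ethylene response factor, had 3.18, 2.93 and 2.01 CPM in the control-AE roots and 6.05, 4.68 and 3.06 CPM in the AE-roots (log2 fold change 0.76 ± 0.32). The response regulator ARR8 (7476846), a downstream part of cytokinin signalling, had 44.4, 51.9 and 62.05 CPM in the control-AE roots and 70.02, 76.9 and 46.98 CPM in the AE-roots. LOG1 (7477665), which makes active cytokinin, had a log2 fold change of 0.21 ± 0.22, and the most abundant row of the gibberellin receptor GID1B (7458234) had one of -0.05 ± 0.25. Gibberellin 2-beta-dioxygenase 1 (7488027), which inactivates gibberellins, had 11.8, 10.2 and 11.3 CPM in the control-AE roots and 12.01, 13.7 and 15.2 CPM in the AE-roots, with the AE libraries just above the controls.

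The group drawn as nitrate and phosphate uptake and assimilation had a median of -0.28 over 14 rows, with 10 below and 4 above. Its rows are NRT1/PTR family members, a nitrate reductase, glutamine synthetases and a putative glycerol-3-phosphate transporter. No row named for phosphate uptake is among them. The 3 rows with an unadjusted p below 0.05 were all lower and all named NRT1/PTR FAMILY 1.2, whose Arabidopsis counterpart carries nitrate between xylem and phloem, where 1.65% of all rows were lower at that p. Gene 18107474 had 23.6, 25.5 and 16.6 CPM in the control-AE roots and 17.7, 10.9 and 9.67 CPM in the AE-roots (log2 fold change -0.77 ± 0.27), gene 112324949 had 99.5, 95.1 and 52.5 CPM in the control-AE roots and 61.6, 54.9 and 33.6 CPM in the AE-roots (log2 fold change -0.72 ± 0.30) and gene 7470568 had 18.7, 37.2 and 29.7 CPM in the control-AE roots and 18.4, 19.1 and 19.9 CPM in the AE-roots (log2 fold change -0.57 ± 0.24). The groups overlapped in all 3. In roots at 11 days the fold changes of these rows were 0.77, 0.61 and -0.49 in that order, so the first 2 had the opposite sign there. The differences between the times were -1.52, -1.31 and -0.07, and 0 of them were called (edgeR, adjusted p = 0.9999 for all 3). The glutamine synthetases 7486383 and 18109315, the most abundant rows of the list, had log2 fold changes of 0.10 ± 0.33 and 0.18 ± 0.15.

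Cell cycle genes could be read in 2 rows. PCNA (7481501), the sliding clamp of DNA replication, had 35.3, 33.3 and 33.03 CPM in the control-AE roots and 32.2, 37.2 and 37.01 CPM in the AE-roots, a log2 fold change of 0.07 ± 0.12 and an interval of -0.21 to 0.35, so that even a 1.5-fold change lies outside it. Cyclin-A3-1 (18102091) was at 1.33, 2.73 and 1.92 CPM in the control-AE roots and 1.49, 0.976 and 2.17 CPM in the AE-roots.

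**Figure D4:**
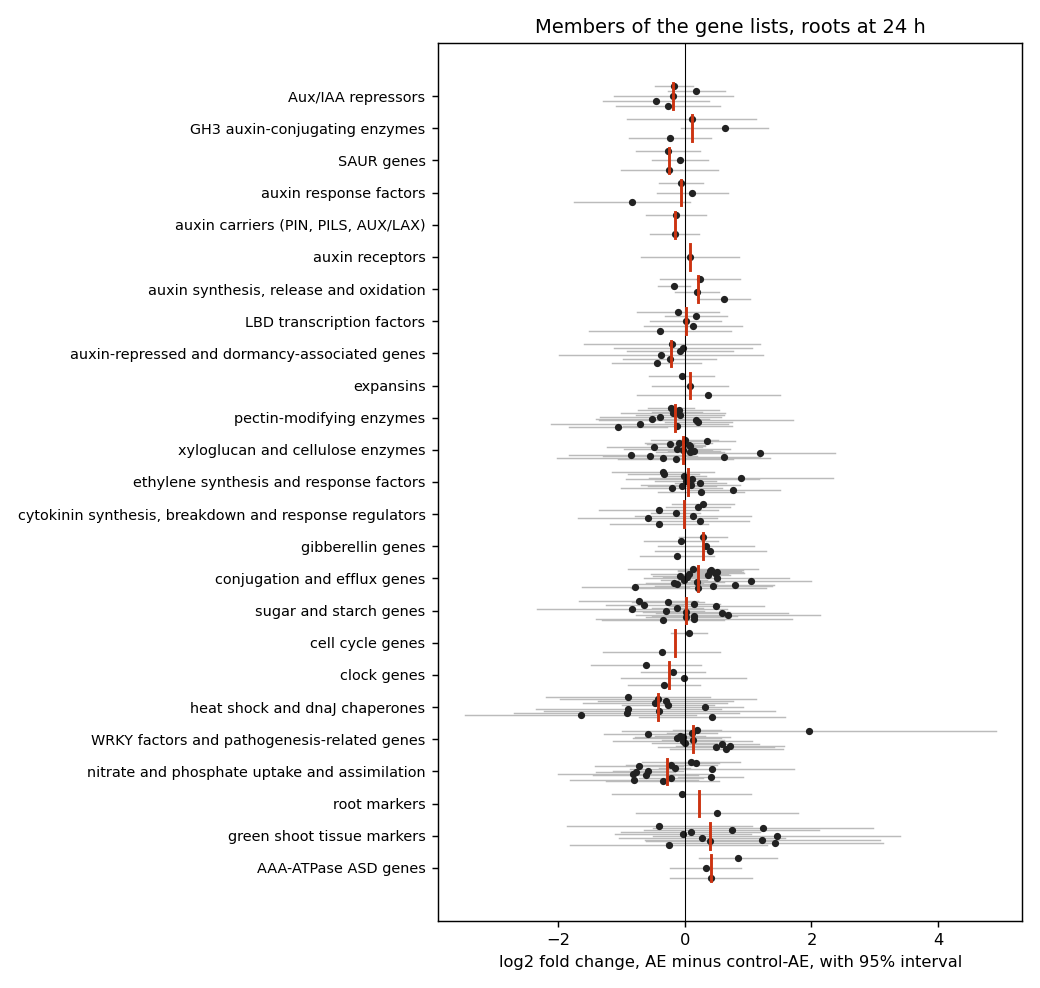
Log2 fold change of AE against control-AE in roots at 24 h (x axis, points, with 95% intervals in grey) for the members of each gene group, and the median of each group (red bar). The medians run from -0.42 for heat shock and dnaJ chaperones to 0.42 for the AAA-ATPase ASD genes, and 0 members were called.

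Outside these groups, the 8 annotated rows with the smallest p among those without overlap were picked after their values were seen. Peroxidase 2 (7482222), an enzyme of the cell wall, had 33.6, 31.6 and 40.6 CPM in the control-AE roots and 52.4, 61.3 and 70.9 CPM in the AE-roots (log2 fold change 0.80 ± 0.16). The UPF0481 protein 18110669 had 2.56, 1.95 and 3.35 CPM in the control-AE roots and 8.41, 8.002 and 4.84 CPM in the AE-roots (log2 fold change 1.43 ± 0.30). All AE libraries were above all control-AE libraries in both rows. A scopoletin glucosyltransferase (7492050), which stores a coumarin as its glucoside, had 19.7, 23.8 and 21.6 CPM in the control-AE roots and 34.5, 31.2 and 41.9 CPM in the AE-roots (log2 fold change 0.73 ± 0.16). The isoprenylated metal-binding protein 18098234 had 80.98, 83.01 and 83.3 CPM in the control-AE roots and 113, 123 and 111 CPM in the AE-roots, the tightest values of this set. The phosphodiesterase 7460574, which releases glycerol phosphate from lipid head groups, had 8.93, 6.44 and 10.1 CPM in the control-AE roots and 18.3, 12.98 and 19.6 CPM in the AE-roots. The pathogen-related protein 7469203 had 10.6, 11.2 and 12.4 CPM in the control-AE roots and 15.2, 21.9 and 19.9 CPM in the AE-roots (log2 fold change 0.74 ± 0.18). In the other direction, the ubiquitin ligase MIEL1 (7481643) had 2.03, 2.44 and 2.01 CPM in the control-AE roots and 0.876, 0.683 and 1.09 CPM in the AE-roots, and a subunit of 2-oxoisovalerate dehydrogenase (7466848), which breaks down branched-chain amino acids, had 37.8, 40.6 and 54.5 CPM in the control-AE roots and 27.5, 30.7 and 23.98 CPM in the AE-roots (log2 fold change -0.69 ± 0.18). For these rows in the order given, the fold changes in roots at 11 days were 0.55, 0.88, 0.82, 0.46, 0.63, 0.42, -0.98 and -0.94. The product names come from rows ordered by their p at 11 days, so a named row is more likely than others to have a large value at that time.

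The rows that DESeq2 called in roots at 11 days, 43 of 23998 (0.179%), were read at 24 h, an addition made after the data were seen. Of the 15 rows higher at 11 days (0.0625%), 14 had a positive log2 fold change at 24 h, where 50.1% of all tested rows were positive, and their median was 0.36 at 24 h against 0.97 at 11 days. The 24 h libraries had no part in choosing these rows, and 3 of them were higher at an unadjusted p below 0.05 at 24 h, beside 2.00% of all rows. The oxygenase DMR6-LIKE 2 (7490718) had 1.41, 1.95 and 0.287 CPM in the control-AE roots and 3.15, 2.54 and 5.53 CPM in the AE-roots and a log2 fold change of 1.61 ± 0.56, without overlap. A patatin-like lipase (18101188) had 7.51, 5.75 and 5.65 CPM in the control-AE roots and 13.1, 8.30 and 7.90 CPM in the AE-roots, also without overlap, and the third was DETOXIFICATION 16. Of the 28 rows lower at 11 days (0.117%), 27 were tested at 24 h, 15 of them were negative and their median was -0.03. None of the 42 tested rows was called at 24 h.

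**Figure D5:**
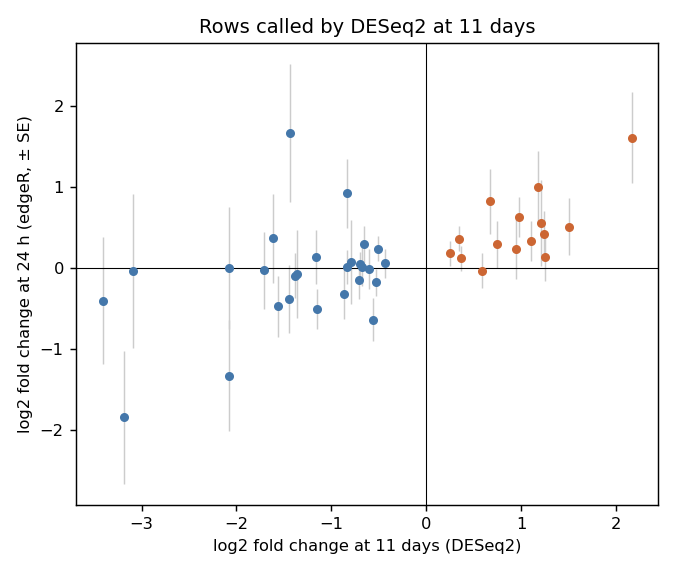
Log2 fold change at 24 h (y axis, edgeR, bars are ± SE) against that at 11 days (x axis, DESeq2) for the rows DESeq2 called in roots at 11 days. Of the 15 rows higher at 11 days (orange), 14 lie above 0 at 24 h, whereas 15 of the 27 lower rows (blue) lie below 0.

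The AE effect was also set against the other effects by a test of the difference itself. Subtracting the AI effect from the AE effect in roots at 24 h gave 0 calls in 23964 rows, with 1076 rows at an unadjusted p below 0.05 by edgeR (4.49%) and 0 calls by DESeq2. AI against its own control gave 0 calls in 23021 rows (1612 at an unadjusted p below 0.05, 7.00%). The AE change at 24 h minus that at 11 days gave 0 calls in 25413 rows (778 at an unadjusted p below 0.05, 3.06%, and 2 calls by DESeq2), and the AE change in roots minus that in stems gave 0 in 25316 rows (798, 3.15%, and 10 calls by DESeq2). A difference of the AE response from the other times, tissues and agents was therefore not detectable by edgeR with these libraries.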

How the data were processed

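The deposited files hold whole-number read counts per transcript row, without normalization. Per the labels, the authors sequenced polyadenylated RNA, and the submitters' processing notes name FastQC, STAR, featureCounts and Subread. The paper gives a Populus trichocarpa genome, whereas the files use RefSeq sequence names. Each of the 62007 rows (37173 genes) was treated by itself. Rows were kept by filterByExpr (minimum count 10, minimum total 15), scaled by TMM and tested with glmQLFit and glmQLFTest of edgeR 4.0.16 under R 4.3.3 (Benjamini-Hochberg, 0.05). Each SE was derived from the fold change and its F statistic. Libraries with over 1000000 counts were used. Alternatives were DESeq2 1.42.0, limma 3.58.1, other scaling, filters, a replicate block, summed counts and single libraries left out. The tests were tested on simulated data. Members and lists were chosen with earlier results of these data known. Rows named were those with the smallest p (10 in each direction), since fewer than 5 were called, then the 2 most abundant members of each list and the products the paper names; others were chosen after their values were seen. Product names came from the annotation column of a shortened supplementary table, 1998 rows, whose statistics were not used. Python 3.11.15 and matplotlib 3.10.9 drew the plots.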

Additional observations from a re-analysis of the deposited data

How the results depend on the processing

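For AE against control-AE in roots at 24 h, the 0 calls of edgeR became 10 with DESeq2 and stayed 0 with RLE factors, no filter, a minimum of 1 CPM in 3 libraries, limma voom, a joint fit of the 4 root groups and counts summed per gene, and the calls ranged from 0 to 0 when each library was left out. The same count was 0 with the replicate block, and the labels do not say that equal numbers pair libraries. Deviations of log2 CPM from the group mean were correlated between libraries over 21575 rows. The values were -0.34 for control-AE 1 with AE 1 and -0.11 for control-AE 2 with AE 2. Other pairs ran from -0.26 to 0.43, the highest for control-AE 3 with AE 1. The block thus did not join the libraries most alike, and the source of these correlations was not tested. Summing per gene cannot bring back any reads that the counting left out. DESeq2 gave 2 calls for the AE change at 24 h minus that at 11 days and 10 for roots minus stems. Without AI replicate 3, AI against control-AI gave 4 calls, so that its range over left-out libraries was 0 to 4. For control-AE against control-AI, the 1458 calls became 823 with the replicate block and 29 to 1518 with each library left out. Of 114 named rows, 31 changed sign under at least 1 of 14 alternatives, and 0 of these had an unadjusted p below 0.05. A log2 difference under about 0.52, the reach of the median 95% interval, could not be told from 0 in a typical row.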

Other observations

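Several gene groups varied more between libraries of a group than between the groups. The auxin-repressed 12.5 kDa protein (7456781), known as a marker of dormancy and of low auxin, had 244, 349.8 and 451 CPM in the control-AE roots and 335, 507 and 67.9 CPM in the AE-roots, and a dormancy-associated protein (7481722) had 152, 189.5 and 259.6 CPM in the control-AE roots and 145, 357 and 87.8 CPM in the AE-roots. In both, AE 1 was the highest and AE 2 the lowest library of all 6. The chaperone dnaJ 8 (18094246), a helper of protein folding, had 78.4, 184 and 237 CPM in the control-AE roots and 78.5, 156 and 34.2 CPM in the AE-roots, high in control-AE 2 and 3 and in AE 1. The clock protein REVEILLE 7 (7485192) had 137, 166 and 114 CPM in the control-AE roots and 68.003, 153 and 52.6 CPM in the AE-roots, where AE 1 again stood with the controls. Over the 11 chaperone rows the summed level was 275, 476 and 640.3 CPM in the control-AE roots and 296, 534 and 159 CPM in the AE-roots.

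Pathogenesis-related protein 1 (18095154), a marker of defence, had 10.7, 4.39 and 76.6 CPM in the control-AE roots and 50.1, 295 and 11.5 CPM in the AE-roots, a range within the AE-roots wider than the difference between the groups (log2 fold change 1.96 ± 1.27). Of the 11 tested rows for green shoot tissue, 8 lay above and 3 below their controls. The most abundant was oxygen-evolving enhancer protein 2 (7464819), with a log2 fold change of -0.40 ± 0.63. It had 11.5, 33.1 and 33.8 CPM in the control-AE roots and 14.7, 38.3 and 6.42 CPM in the AE-roots. The Rubisco small chain (18099496) had 9.64, 10.2 and 4.21 CPM in the control-AE roots and 36.4, 17.3 and 2.86 CPM in the AE-roots. In the Rubisco row the unnumbered AE library and AE 1 were above all controls and AE 2 was the lowest of the 6. The root label could not be checked with the rows at hand. The 2 rows picked by name as root markers, homologs of ROOT HAIR DEFECTIVE 3, had enough counts to be tested in stems at 24 h too. They were detected in all 6 root libraries, which alone does not tell root from stem. Their summed level was 16.4, 7.71 and 5.07 CPM in the control-AE roots and 11.5, 5.56 and 16.6 CPM in the AE-roots.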
